A study of Mus musculus with 9 samples.

Results

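The cadherin (Cdh) and protocadherin (Pcdh) genes were examined in meDIP sequencing of the hypothalamus of neonatal mice. The members are the protein-coding genes of the GENCODE vM21 annotation (mm10) whose symbols are Cdh with a number or begin with Pcdh, which gave 92 of 21938 protein-coding genes, 23 Cdh and 69 Pcdh. Of the Pcdh genes, 57 lie in the alpha, beta and gamma clusters (Pcdha, Pcdhb and Pcdhg) and 12 lie elsewhere. A differentially methylated region (DMR) was assigned to a gene when it overlapped the gene body or the 1000 bp upstream of it, and a DMR shared by overlapping genes was counted once. By this rule 39 of the 12949 listed DMRs belonged to Cdh and Pcdh genes, 29 to Cdh and 10 to Pcdh.

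All mice were male C57/Bl6 pups collected at postnatal day 6 (P6). Pups of the modified maternal separation (MMS) group were taken from the dam daily from P4 to P6 and laid on their backs, and Control pups were not. DNA of whole hypothalamus from 10 males in each group was combined into 3 pools, giving 3 Control and 3 MMS meDIP libraries beside 2 input libraries and 1 IgG library. An antibody against methylated cytosine pulls down fragments in meDIP, so both the methylation of a region and its number of CpG sites raise its reads, and bulk tissue does not separate a change within cells from a change in the mix of cell types. Each DMR is listed with the log2 mean of normalised reads in Control and in MMS, over 3 pools each. No value per pool stands beside these means, so no spread between pools, no test between the groups and no depth per library could be computed, and every difference given here is a difference between 2 group means of regions that the study had already selected. In addition, the lowest Control mean in the list is −0.17 and the lowest MMS mean −0.24 (0.889 and 0.847 normalised reads), and a difference measured from such a mean depends on where that lowest value was set.

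Cadherins are transmembrane adhesion proteins that bind each other between cells through calcium-dependent extracellular repeats. Classical cadherins of type I and type II carry a cytoplasmic tail that binds catenins and through them the actin cytoskeleton, and in brain they guide cell sorting, axon growth and synapse formation. Protocadherins are the largest branch of the superfamily and lack the classical catenin-binding tail. The delta protocadherins are encoded by single genes, whereas the clustered genes are switched on in different combinations in single neurons and give each neuron a surface identity used in self-avoidance.

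The sequences below show regions at the extremes of the set, as read from GRCm38 (mm10) on the strand of the gene, with each CpG in capitals. The Cdh10 region (chr15:19013286-19013526, plus strand) is the central 241 bases of the DMR with the most CpG per 100 bp and the largest difference towards MMS, and it lies in the last coding exon. The Cdh19 region (chr1:110889924-110890066, minus strand) is the narrowest DMR and all of its 143 bases are coding. The Cdh23 region (chr10:60312428-60312668, minus strand) is the centre of a DMR over exon 56. The Cdh13 region (chr8:118624357-118624572, plus strand) is a whole DMR of 216 bases in intron 2 that had the largest difference towards Control and holds no CpG.
Cdh10: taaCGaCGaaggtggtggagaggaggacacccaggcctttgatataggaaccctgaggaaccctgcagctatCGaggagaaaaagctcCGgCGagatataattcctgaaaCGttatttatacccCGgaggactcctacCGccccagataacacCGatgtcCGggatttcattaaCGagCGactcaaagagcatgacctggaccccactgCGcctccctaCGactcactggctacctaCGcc
Cdh19: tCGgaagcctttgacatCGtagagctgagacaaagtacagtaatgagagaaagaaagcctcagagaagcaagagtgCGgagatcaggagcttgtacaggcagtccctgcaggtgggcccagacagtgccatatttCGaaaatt
Cdh23: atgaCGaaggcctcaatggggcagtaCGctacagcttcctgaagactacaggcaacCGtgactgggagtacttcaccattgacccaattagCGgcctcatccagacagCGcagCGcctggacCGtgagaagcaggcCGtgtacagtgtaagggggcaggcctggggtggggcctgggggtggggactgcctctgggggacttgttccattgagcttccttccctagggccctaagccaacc
Cdh13: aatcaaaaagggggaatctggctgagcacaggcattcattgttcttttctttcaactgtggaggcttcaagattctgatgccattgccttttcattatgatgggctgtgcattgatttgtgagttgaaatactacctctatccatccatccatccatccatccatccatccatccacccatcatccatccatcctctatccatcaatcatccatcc
The stretches of Cdh10, Cdh19 and Cdh23 hold 15, 4 and 8 CpG, whereas the Cdh13 sequence holds 0, and its 3′ part is rich in copies of the letters ATCC.

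DMRs were found in 32 of the 92 genes (34.8%), against 19.3% of all protein-coding genes. Of the 32, 14 are the Pcdha genes, which share 1 DMR at their common 3′ end. Outside the Pcdha genes 18 of 78 members held a DMR (23.1%), a share close to that of all genes. By family, 12 of 23 Cdh genes held a DMR, 4 of 12 non-clustered Pcdh genes and 16 of 57 clustered Pcdh genes. A DMR higher in MMS lay in 16 members (17.4%), beside 13.6% of all protein-coding genes. A DMR higher in Control lay in 21 members (22.8%), beside 9.13% of all genes, but 14 of these 21 are the Pcdha genes with their shared region.

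Of the 39 DMRs, 28 were higher in MMS and 11 higher in Control. The share higher in MMS was 71.8% (95% Wilson interval 56.2% to 83.5%, counting error only), and that of the whole list, 62.6%, lies within the interval. In DMRs higher in MMS the median difference (MMS minus Control) was 3.57 on the log2 scale, with a range of 1.58 to 5.42, and the whole list had a median of 3.43. In DMRs higher in Control the median was −2.10, with a range of −5.03 to −1.17, and that of the whole list was −1.73. The Control mean was at its lowest value, meaning within 0.5 (log2) of it, in 14 of the 28 DMRs higher in MMS (50.0%, beside 52.7% of all DMRs higher in MMS). In these 14 it was exactly at that value. The MMS mean was at its lowest value in 1 of the 11 DMRs higher in Control (9.09%, beside 4.6% of all DMRs higher in Control). Where Control lay above its lowest value, the median difference towards MMS was 2.84, and 2.58 in the whole list. The plot of the group means shows these 2 kinds of DMR side by side.

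**Figure D1:**
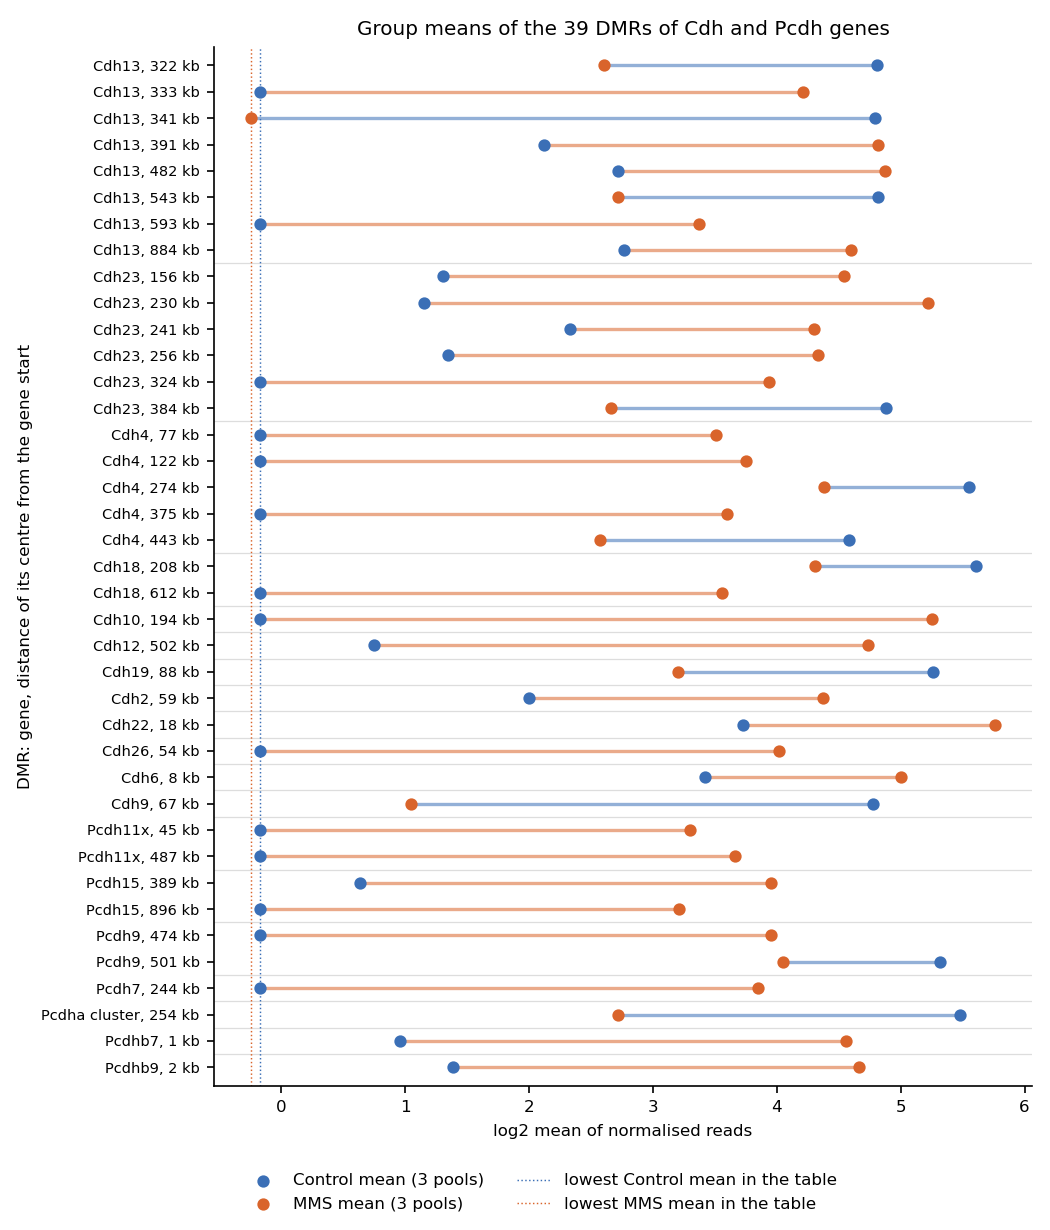
Log2 means of normalised reads (x axis) in Control (blue points) and MMS (orange points), each over 3 pools, for the 39 DMRs of Cdh and Pcdh genes, named by gene and by the distance of the DMR's centre from the gene start (y axis), with dotted lines at the lowest group means of the whole list. Control points of 14 DMRs sit on their dotted line, and 1 MMS point, in Cdh13, sits on the other.

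Among the type I classical cadherins, 2 of 5 genes held a DMR, beside 19.3% of all protein-coding genes. Cdh2 (N-cadherin, which joins neural progenitors and synaptic membranes) had 1 DMR of 722 bp in intron 2 (chr18:16750302-16751023), with a Control mean of 2.00 and an MMS mean of 4.37, a difference of 2.37. Cdh4 (R-cadherin, a close relative of N-cadherin in brain and retina) had 5 DMRs over its 457 kb, 3 higher in MMS and 2 higher in Control. Cdh1, Cdh3 and Cdh15 (E-, P- and M-cadherin, of epithelia and muscle) held none. These genes are 66.9, 46.4 and 19.4 kb long, and 20.5% of all genes of 10 to 100 kb held a DMR. Cdh2, at 220 kb, and Cdh4 are of lengths at which 57.4% (100 to 300 kb) and 79.9% (over 300 kb) did.

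The 3 Cdh4 DMRs higher in MMS all started from the lowest Control mean. Means were −0.17 in Control and 3.51 in MMS at chr2:179519143-179520169, and −0.17 and 3.75 at chr2:179564601-179565362, both in intron 2. At chr2:179817263-179817457 in intron 4 they were −0.17 and 3.60. The 2 regions higher in Control lay above the lowest value in both groups. At chr2:179715908-179716397 in intron 2 the means were 5.55 in Control and 4.38 in MMS, and this difference of −1.17 was the smallest towards Control in the set. The other, chr2:179885324-179885940 in intron 9, covered 87 coding bases (codons 456 to 484 of 912) and had means of 4.58 in Control and 2.57 in MMS, a difference of −2.01. The regions in the 2 directions were interleaved along Cdh4.

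Type II classical cadherins, which pattern neuronal groups and synaptic partners, held a DMR in 7 of 13 genes, 8 DMRs in all with 5 higher in MMS and 3 higher in Control. Cdh6, Cdh9, Cdh10, Cdh12 and Cdh18 lie within 10.4 Mb of chromosome 15, and all 5 held a DMR, 6 DMRs in all with 4 higher in MMS and 2 higher in Control. Of the 8 type II genes elsewhere, Cdh19 and Cdh22 held 1 DMR each, and Cdh5, Cdh7, Cdh8, Cdh11, Cdh20 and Cdh24 held none. The chromosome 15 genes are 128 to 1140 kb long and the others 10.1 to 392 kb, and longer genes of any kind more often hold a DMR (57.4% of all genes of 100 to 300 kb, 79.9% of those over 300 kb and 20.5% of those of 10 to 100 kb).

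On chromosome 15, Cdh10 had the largest difference towards MMS of all 39 regions. Its DMR of 466 bp (chr15:19013174-19013639) lies in exon 12 of 12 and covers 448 coding bases, codons 626 to 775 of 787, in the C-terminal part of the protein, where classical cadherins carry their catenin-binding tail. The means were −0.17 in Control and 5.25 in MMS, a difference of 5.42, or 0.889 against 38.1 normalised reads. By size this difference ranked 40 among the 8105 DMRs higher in MMS. With 24 CpG (5.15 per 100 bp) and no repeat sequence, it was also the most CpG-rich region of the set, part of which is the Cdh10 sequence printed above. Next to it on the chromosome the pattern was different in Cdh9, whose DMR of 792 bp in intron 2 (chr15:16795338-16796129) had a Control mean of 4.78 and an MMS mean of 1.05, a difference of −3.73.

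The remaining type II regions had smaller differences or lay in noncoding sequence. Cdh6, at chr15:13165362-13166019 in intron 1 and 7.985 kb from the gene start, had means of 3.42 in Control and 5.00 in MMS, and this difference of 1.58 was the smallest towards MMS in the set. Cdh12 had means of 0.75 and 4.74 (difference 3.99) at chr15:20951205-20951564, a region upstream of its principal transcript that also overlaps the antisense gene Gm49685. Cdh18 held a DMR in each direction, 404 kb apart. The first (chr15:22756644-22757094) had means of 5.61 in Control and 4.31 in MMS, whereas the second (chr15:23161077-23161242) had −0.17 and 3.56, and 97.6% of the second is repeat sequence.

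Cdh22 and Cdh19 were the type II genes with a DMR on other chromosomes. Cdh22 had the highest MMS mean of any of the 39 regions, 5.76 against 3.73 in Control, in intron 1 at chr2:165216331-165217566. Cdh19, a cadherin of Schwann cells and other glia, went the other way. In its exon 12 of 12 (codons 649 to 696 of 769) the means were 5.26 in Control and 3.20 in MMS, a difference of −2.06. Thus the last exons of Cdh10 and Cdh19, which both encode the C-terminal part of a type II cadherin, each carried a DMR, with opposite directions.

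Cdh13 (T-cadherin) is the truncated member of the family, since a lipid anchor holds it in the membrane and it lacks the cytoplasmic tail. It held 8 DMRs over 1.04 Mb, the most of any member, 5 higher in MMS and 3 higher in Control. The first 3 lie within intron 2, separated by 9.22 and 7.33 kb, and alternated in direction. At chr8:118605645-118606407 the means were 4.81 in Control and 2.61 in MMS. At chr8:118615633-118617025, a region of 23 CpG that overlaps the antisense gene Gm45720, they were −0.17 and 4.21. At chr8:118624357-118624572, the CpG-free sequence printed above, they were 4.79 and −0.24. This last difference of −5.03 was the largest towards Control in the set, and it was measured against the lowest MMS mean in sequence that is 48.6% repeat.

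The other 5 Cdh13 regions had differences of between −2.10 and 3.54. The widest DMR of the set, 1718 bp with 26 CpG at chr8:118673740-118675457, covered 209 coding bases (codons 53 to 122 of 713) and had means of 2.12 in Control and 4.82 in MMS. In intron 4, chr8:118766081-118766448 was higher in MMS (2.72 and 4.87) and chr8:118826009-118827352 was higher in Control (4.82 and 2.72). In introns 5 and 7, chr8:118876705-118877416 (−0.17 and 3.37) and chr8:119167592-119167850 (2.77 and 4.60) were higher in MMS.

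Cdh23, an atypical cadherin with a very long extracellular part, forms the tip links of inner ear hair cells together with Pcdh15. It held 6 DMRs, of which 5 were higher in MMS. The exception was the DMR at its 3′ side, chr10:60312229-60312867 over exon 56 of 70 (306 coding bases, codons 2623 to 2724 of 3351, 16 CpG), where the means were 4.88 in Control and 2.66 in MMS. The widest Cdh23 region, chr10:60465577-60467180, spans 177 coding bases (codons 379 to 437) and 31 CpG, with means of 1.15 in Control and 5.22 in MMS, a difference of 4.07 from a Control mean above the lowest value. A similar difference of 4.11 (−0.17 and 3.94) at chr10:60372246-60373107 lies over Vsir, a gene within intron 38 of Cdh23, and the DMR overlaps an exon there, so it is not a region of Cdh23 alone.

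The other 3 Cdh23 regions lay in introns. Means were 1.35 in Control and 4.33 in MMS at chr10:60439692-60440656, and 2.33 and 4.30 at chr10:60454832-60455538, both in intron 14. At chr10:60540428-60540669 in intron 7, with 1 CpG, they were 1.31 and 4.54. These regions of Cdh23 had signal above the lowest value in both groups. Among the cadherins outside the classical types, Cdh26 held 1 DMR of 824 bp in intron 14 without any CpG (chr2:178484266-178485089, −0.17 and 4.02). Cdh16 and Cdh17, the 7D cadherins of kidney and gut, held none. They are 22.5 and 59.7 kb long, and 20.5% of all genes of 10 to 100 kb held a DMR.

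**Figure D2:**
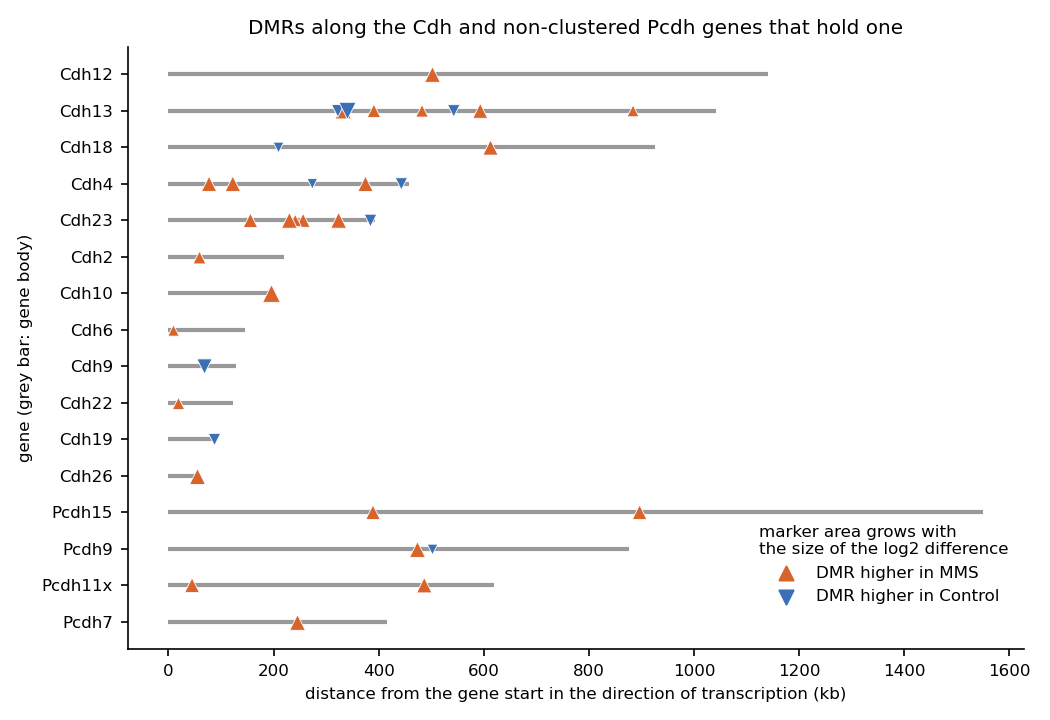
Position of each DMR (x axis, kb from the gene start in the direction of transcription) along the gene bodies (grey bars) of the 12 Cdh and 4 non-clustered Pcdh genes with a DMR (y axis), with orange upward triangles for DMRs higher in MMS, blue downward triangles for DMRs higher in Control and an area that grows with the size of the log2 difference. Both directions are present in Cdh4, Cdh13, Cdh18, Cdh23 and Pcdh9, and none of the markers is centred in a promoter.

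The non-clustered protocadherins held 7 DMRs in 4 of 12 genes. The delta-1 genes Pcdh7, Pcdh9 and Pcdh11x held 5 of them, 4 higher in MMS and 1 higher in Control, and Pcdh1, the fourth delta-1 gene, held none. All 5 delta-2 genes (Pcdh8, Pcdh10, Pcdh17, Pcdh18 and Pcdh19), several of which bind the WAVE actin regulators, were without a DMR. They are shorter, from 4.54 to 106 kb, whereas Pcdh7, Pcdh9 and Pcdh11x are 415 to 877 kb long. Of all genes, 3.58% of those under 10 kb, 20.5% of those of 10 to 100 kb and 57.4% of those of 100 to 300 kb held a DMR. Over 300 kb it was 79.9%. Among the rest, Pcdh15 held 2 and Pcdh12 and Pcdh20 held none.

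Of these 7 regions 6 were higher in MMS, beside 62.6% of the whole list. In 5 of the 6 the Control mean was at its lowest value, beside 52.7% of all DMRs higher in MMS. Pcdh7 had means of −0.17 in Control and 3.85 in MMS over 169 bp (chr5:57962272-57962440). Pcdh11x, on chromosome X, had −0.17 and 3.30 in intron 1 (chrX:120334987-120335381) and −0.17 and 3.66 in intron 6 (chrX:120776785-120777353). Repeats make up 69.9% and 81.5% of these Pcdh11x regions. A DMR was listed in 4.75% of the protein-coding genes of chromosome X, and in 8 of its 26 genes over 300 kb. Pcdh9 held 2 regions 27.1 kb apart in intron 3 with opposite directions, 5.32 in Control and 4.05 in MMS at chr14:93389518-93389731 and −0.17 and 3.95 at chr14:93416815-93417079. Pcdh15, the partner of Cdh23 in the tip link, had 0.64 and 3.95 at chr10:73488238-73488897 and −0.17 and 3.21 at chr10:73995733-73995949.

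The clustered genes lie in 912 kb of chromosome 18 and held 3 DMRs, which is 3.29 per Mb beside 5.41 per Mb over the whole chromosome. Counted over the genes alone, without the sequence between them, it is 0.545 per 100 kb of gene, beside 0.614 in all protein-coding genes. In the alpha and gamma clusters each gene has its own variable exon, joined to constant exons at the 3′ end that all genes of the cluster share, whereas each beta gene is a complete coding exon. The Pcdha cluster (257 kb, 14 genes) held 1 DMR of 1255 bp (chr18:37183916-37185170), with 18 CpG, over the end of the last shared intron and the first 225 bases of the last constant exon, which are coding. Its means were 5.48 in Control and 2.72 in MMS, a difference of −2.76, or 44.6 against 6.59 normalised reads. Because the constant exons belong to every Pcdha transcript, this DMR was assigned to all 14 Pcdha genes. None of the variable exons or promoters of the Pcdha genes held a DMR.

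The Pcdhb cluster (260 kb, 22 genes) held 2 DMRs, both inside a coding exon and both higher in MMS. In Pcdhb7 the means were 0.96 in Control and 4.56 in MMS, a difference of 3.60, over coding bases 1062 to 1521 (chr18:37342874-37343333, 10 of the 72 CpG of the gene). In Pcdhb9 they were 1.39 and 4.66, a difference of 3.27, over coding bases 1263 to 2255 (chr18:37402217-37403209). The Pcdhb9 region takes up 40.0% of the coding sequence and holds 35 of the 57 CpG of the gene. The Pcdhg cluster (180 kb, 21 genes) held none. So the shared 3′ end of the alpha cluster and the 2 beta exons went in opposite directions, as the map of the clustered locus shows.

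Beta genes are close copies of each other, which bears on where short reads can be placed. At 85% identity or more over at least 100 bp, the Pcdhb7 region aligned to 5 other beta genes, best to Pcdhb9 with 92.8% identity. The Pcdhb9 region aligned to 16 other beta genes, best to Pcdhb7 with 88.6% identity over all 993 bp. At 95% identity neither aligned to another place. Whether reads of one beta gene were counted in the other was not tested.

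**Figure D3:**
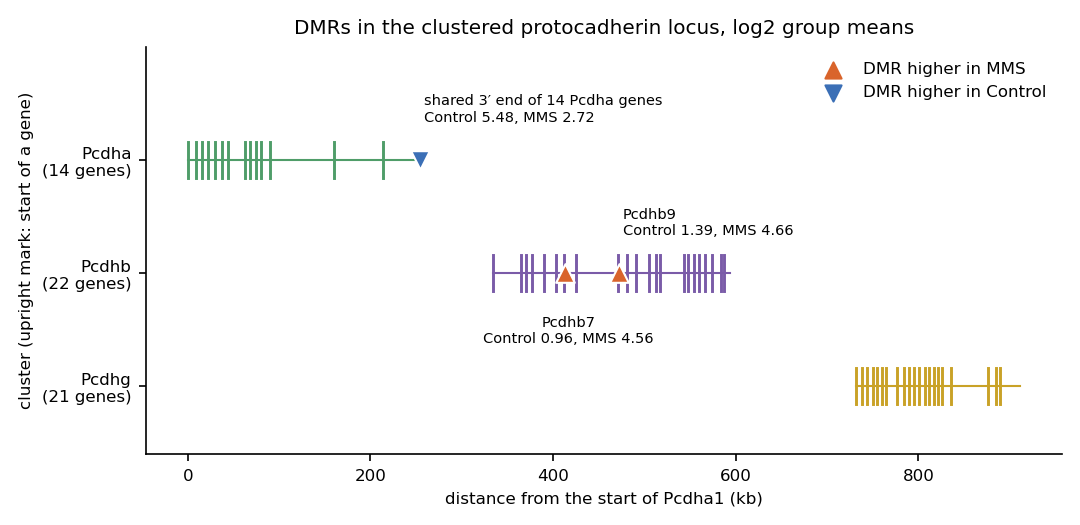
Starts of the 57 clustered genes (upright marks) of the Pcdha, Pcdhb and Pcdhg clusters (y axis) by distance from the start of Pcdha1 (x axis, kb), with triangles at the 3 DMRs and their log2 group means beside them. The blue DMR, higher in Control, sits at the 3′ end of the Pcdha cluster, and the orange DMRs, higher in MMS, sit on Pcdhb7 and Pcdhb9.

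By position, 30 of the 39 DMRs were centred in an intron of the principal transcript, and 5 in an exon. The other 4 lay outside the principal transcript but inside another transcript of the gene, upstream in Cdh12, Cdh18 and Pcdh15 and downstream in Pcdh7. No DMR of the set was centred in a promoter (1000 bp upstream to 100 bp downstream of a start), beside 5.26% of the DMRs of all protein-coding genes. An exon of a protein-coding gene was overlapped by 10 of 39, 9 of them an exon of the gene itself, beside 23.1% in all protein-coding genes. Those 9 lie in Cdh4, Cdh10, Cdh13, Cdh19, Cdh23, the Pcdha constant exon, Pcdhb7 and Pcdhb9, and 5 of them were higher in MMS. Intron 1 held 4 DMRs. In 7 cases a DMR also lay over another annotated gene, among them readthrough models across the clustered locus.

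In width and sequence the regions resembled the whole list. They spanned 143 to 1718 bp with a median of 639 bp, and all listed DMRs had a median of 544 bp. The median CpG density was 1.36 per 100 bp (range 0 to 5.15), beside 1.32 in all DMRs, and the median GC content was 47.2%, beside 47.4%. Repeats made up a median of 21.8% of each region, beside 20.6%. When each region was aligned to the genome, 36 of 39 had no other match of at least 100 bp and 95% identity, and none matched elsewhere over 90% of its width. The 3 with a shorter match lie in Cdh13, Cdh23 and Pcdh11x.

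How often a member held a DMR differed with its length, as it did in all genes. In genes over 300 kb, 5 of 6 Cdh genes and 4 of 4 non-clustered Pcdh genes held one, beside 79.9% of all protein-coding genes of that length. From 100 to 300 kb these counts were 5 of 8 Cdh genes and 0 of 1 non-clustered Pcdh genes, beside 57.4%. From 10 to 100 kb they were 2 of 9 and 0 of 5, beside 20.5%, and under 10 kb 0 of 2 non-clustered Pcdh genes, beside 3.58%. The exception among the long genes was Cdh8, a type II cadherin of 392 kb without a DMR. In genes of 100 to 300 kb Cdh7, Cdh11 and Cdh20 were without one. At each length the shares in Cdh genes were thus near those of other genes as long.

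**Figure D4:**
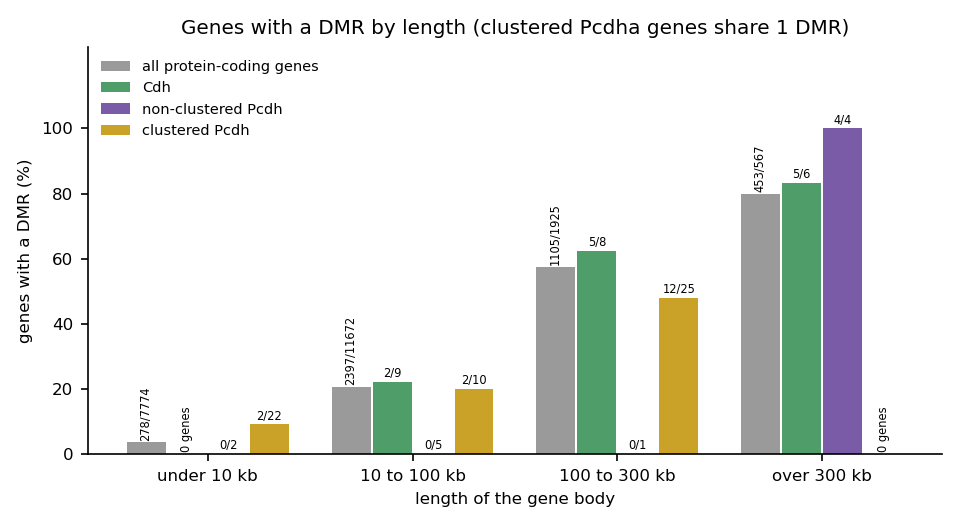
Share of genes with a DMR (y axis, percent) by length of the gene body (x axis) for all protein-coding genes (grey), Cdh genes (green), non-clustered Pcdh genes (purple) and clustered Pcdh genes (yellow), with the number of genes above each bar. Shares rise with length in all protein-coding genes, from 3.58% to 79.9%, and in Cdh genes from 22.2% to 83.3%.

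Long members differed from each other in how densely DMRs were placed. Cdh23 had 1.52 DMRs per 100 kb, a density above that of 97.4% of the 567 protein-coding genes over 300 kb. Cdh4 had 1.09 (above 90.5%) and Cdh13 had 0.768 (above 77.8%). Together these 3 genes held 19 DMRs in 1.895 Mb, whereas the other 20 Cdh genes held 10 in 4.242 Mb, a density of 0.236 per 100 kb. The 3 genes are the members with 3 or more DMRs, so they were picked by the same count that this contrast uses. The density over all protein-coding genes was 0.614 per 100 kb and over all 92 members 0.372. In the remaining long members it was between 0 in Cdh8 and 0.322 in Pcdh11x, with Cdh12 at 0.0876, Pcdh15 at 0.129, Cdh18 at 0.216, Pcdh9 at 0.228 and Pcdh7 at 0.24.

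Among the 10 members over 300 kb, the same 3 genes had the highest CpG density of the gene body. It was 1.30 per 100 bp in Cdh23, 1.22 in Cdh4 and 1.12 in Cdh13, and between 0.406 (Pcdh11x) and 0.622 (Pcdh7) in the other 7 long members. Over the 10 long members the rank correlation of CpG density with DMR density was 0.72, over the 9 autosomal ones 0.97, and over all 567 long genes 0.66 (0.64 over the 541 autosomal ones), each given as a description of genes that share the same libraries. Of the long genes with a CpG density at or under the median of 0.731, 67.6% held a DMR, and of those above it 92.2%. The 7 long members below that median held 10 DMRs and the 3 above it held 19.

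**Figure D5:**
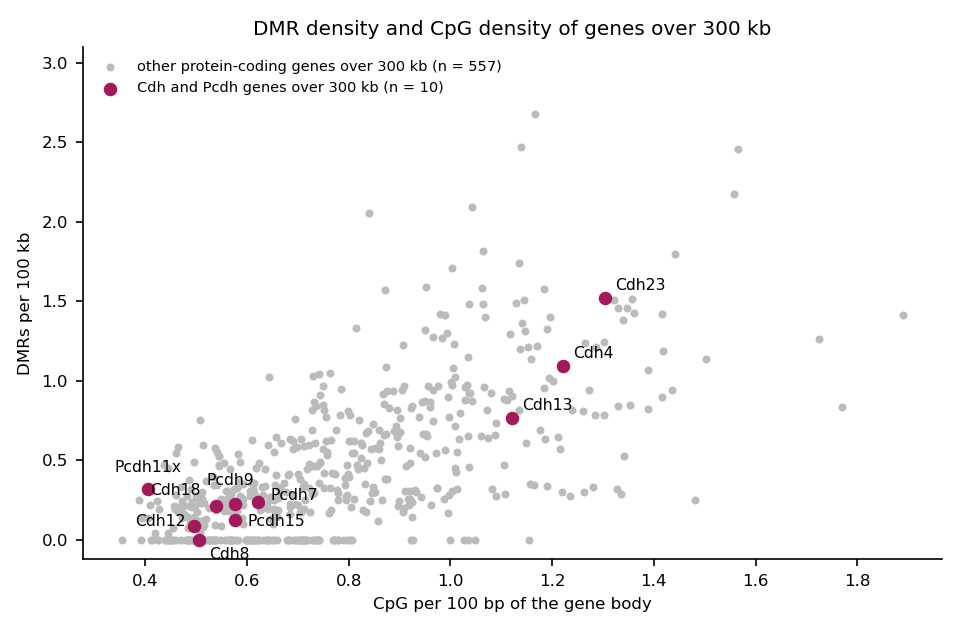
DMRs per 100 kb of gene (y axis) against CpG per 100 bp of the gene body (x axis) for protein-coding genes over 300 kb, with 10 Cdh and Pcdh genes in dark red and all others in grey. Cdh23, Cdh4 and Cdh13 lie apart at 1.12 to 1.30 CpG per 100 bp and 0.768 to 1.52 DMRs per 100 kb, whereas the other 7 lie at or under 0.322 DMRs per 100 kb.

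Genes that act with cadherins were counted by the same rule, for which 19.3% of all protein-coding genes is the background and gene length differs widely. The catenins, which bind the classical cadherin tail, held a DMR in 4 of 7 genes and 15 DMRs in all, 6 higher in MMS and 9 higher in Control (in the whole list 62.6% were higher in MMS). Of these, 12 lie in Ctnna3 (alpha-T-catenin, 1570 kb), 6 in each direction. Ctnna1, Ctnna2 and Ctnnd2 held 1 DMR each, all higher in Control, with differences of −2.31, −2.08 and −1.11, whereas Ctnnb1 (beta-catenin), Ctnnd1 and Jup held none. Of the WAVE complex subunits 2 of 11 held a DMR, Wasf2 (−1.46) and Cyfip2 (−1.45), too few to set a direction beside that share.

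Genes with a part in the choice and silencing of clustered protocadherins held a DMR in 4 of 13 cases, 5 DMRs in all and each higher in MMS, beside 62.6% of the whole list. The DNA methyltransferase gene Dnmt1 held 2 (differences of 4.29 and 3.92) and Dnmt3a held 1 (3.56). Smchd1, a silencing factor, had a difference of 4.28, and in these 4 regions the Control mean was at its lowest value, as in 52.7% of all DMRs higher in MMS. Nipbl, the cohesin loader, had means of 0.75 in Control and 4.75 in MMS. Ctcf and the cohesin subunits on the list were without a DMR.

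Further members of the cadherin superfamily held a DMR in 9 of 27 genes, beside 19.3% of all protein-coding genes. They held 17 DMRs in all, 11 higher in MMS and 6 higher in Control, close to the 62.6% higher in MMS of the whole list. Clstn2 (a synaptic calsyntenin, 589 kb) held 5, 3 of them higher in MMS. Among the planar polarity genes, Celsr3 (4.69), Celsr1 (4.22 and 2.92) and Dchs1 (4.48 and 4.56) held DMRs higher in MMS, and Fat1 (2.36 and −4.99) and Fat3 (4.15 and −1.36) held a DMR in each direction. Fat2 (−1.79) and Cdhr3 (−4.59) had DMRs higher in Control, and Dsg2 (0.99) a DMR higher in MMS. For Celsr3, both Dchs1 DMRs, Celsr1 (4.22), Fat3 (4.15) and a DMR of Clstn2, the Control mean was at its lowest value, −0.17. For Cdhr3 the MMS mean was at its lowest value, −0.24.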

How the data were processed

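Hypothalamic meDIP libraries of 3 Control and 3 MMS pools were sequenced, with 2 inputs and 1 IgG library. Per the study's methods, the authors mapped to mm10, called peaks over inputs in MACS2 with the human genome size setting, compared groups in DiffBind and normalised to a pooled input of each group with an IgG subtraction. Whether the deposited means carry that input and IgG step, and how it set their lowest values, is not given in the sources used here. The deposited columns named as concentrations of the untreated and treated groups were read as log2 means of normalised reads in Control and MMS, and the study's DMRs have an FDR limit of 0.05. The deposited fold, p-value and FDR columns hold the authors' own comparison and were not used. Inputs and IgG, whose labels also name the methylcytosine antibody, were not analysed here.

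Directions came from the group means. A group was at its lowest value within 0.5 (log2) of the lowest mean in the list. Genes and features came from GENCODE vM21, and sequence, CpG and repeats from GRCm38. Assignment to genes was tested on simulated data, where 200 of 200 regions were recovered in their genes, drawn from the 21938. Each region was centred in the window of its gene, so this checks the code and not the choice of rule. The work used Python 3.11.15, pandas 2.3.3, pyfaidx 0.9.0.4 and BLAST 2.17.0. GENCODE gives 2 alpha gene IDs the symbol Pcdha11.

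Members and lists were chosen with earlier results of these data known. Every member with a DMR was named, with both means for genes with 3 or more DMRs, clustered genes, exons, and extremes of difference, width and CpG. Other DMRs were added after their values were seen. The result of 1 further gene list is not reported here.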

Additional observations from a re-analysis of the deposited data

How the results depend on the processing

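The 11 alternatives used other upstream windows, the centre of the DMR, RefSeq genes, a minimum difference of 2 or a minimum width of 300 bp. Others changed the limit for the lowest value or left out Cdh13, the sex chromosomes or DMRs at the lowest value. Of 82 values, 79 moved by less than their interval or 1.5 times. No value could change sign, since each is a count, a share, a density or a median of DMRs already split by direction. Counting the gene body alone, or a DMR by its centre, again gave 39 DMRs, so these settings could move little. Leaving out DMRs with either group at its lowest value moved 3 values. There 24 DMRs remained in place of 39, the median difference towards MMS was 2.84 and the density was 0.229 per 100 kb. The share with more signal in MMS fell from 71.8% to 58.3%, and counted as unmoved because its interval is 56.2% to 83.5%. This setting took out 14 regions with Control at its lowest value and 1 with MMS there. The lean towards MMS thus rested partly on regions at the lowest value. The same share of the whole list was not computed. RefSeq genes gave 41 DMRs in 13 Cdh and 20 Pcdh genes. Control and MMS pups came from the same litters, but the study allocated the samples of each group to pools at random and describes no pairing of pools. No paired analysis was possible for this reason and because the list holds no value per library. Leaving out a replicate could not be run either, for lack of such values. The number of pools limits the precision of every mean, and the list does not give the depth of each library.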
